A study of Mus musculus with 18 samples.

Results

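The baseline transcriptome of the mouse hybridoma E2-10HA, a T cell line, was described from the 3 scramble hairpin libraries of a series of 18 libraries. These libraries came from cells labelled as mature T cells that had been infected with the pLKO.1 plasmid carrying a scramble hairpin and selected with puromycin, and that were grown in IMDM medium with fetal calf serum, peptone and insulin. Total RNA was depleted of ribosomal RNA and made into stranded libraries. The other 15 libraries of the series, made after an L3MBTL3 hairpin or after RBPJ depletion with an empty vector, wild type RBPJ or a mutant of it, were not used, and no contrast was made. The cells are thus a hybridoma line that had been infected and drug selected, and no library of uninfected cells was among the samples.

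A T cell hybridoma is made by fusing a T cell with a thymoma line, which gives a T cell clone that grows without limit. T cells are recognised by the CD3 chains, which carry the signal of the T cell receptor, and their functions are read from coreceptors, cytokine receptors, cytokines and lineage transcription factors. In the Notch pathway, a ligand on a neighbouring cell exposes the receptor to cutting by ADAM proteases and gamma-secretase, and the freed intracellular part joins the DNA-binding factor RBPJ and a Mastermind coactivator to switch on genes such as Hes1. In its absence RBPJ can recruit corepressors, L3MBTL3 among them, to the same genes.

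The authors' table held 24391 genes as normalized values, gene counts divided by 1 size factor per library. The reads recovered from these values summed to 6129134, 5967989 and 4882485 in replicates 1, 2 and 3, and 1 read was worth a value of 0.936, 0.958 and 1.23. A count of 0 allows up to 3 reads, which is a value of 2.81, 2.87 or 3.69 in these libraries and covers counting error only. Throughout, 3 values given together are those of replicates 1, 2 and 3, and an error is the SD over these libraries (n = 3). A gene was classed as expressed at a mean value of at least 50, low from 1 to under 50, and absent under 1. Absent thus means at most a few reads at this depth, and in bulk RNA fewer cells with a transcript and less of it per cell cannot be told apart.

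By these cut-offs 9884 genes (40.5%) were expressed, 4227 (17.3%) were low and 10280 (42.1%) were absent. The expressed genes held 99.1% of all reads. Among protein coding genes the shares were 46.1%, 15.4% and 38.5% of 19894. Long intergenic RNAs were far less often above the cut-off, with 48 of 913 expressed. Of the absent genes, 7725 had no read in any library and the other 2555 had at least 1. The class was the same in all 3 libraries for 21657 genes (88.8%). Near the lower cut-off this depends on depth, since 1 read is under 1 in replicates 1 and 2 and over 1 in replicate 3.

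Replicate 3 stood apart from the other two libraries. Over the expressed genes, log2 values of replicates 1 and 2 correlated at r = 0.994, those of replicates 1 and 3 at 0.975 and those of replicates 2 and 3 at 0.974, as descriptions across genes. Recovered reads of replicates 1 and 2 differed by a chi-square of 1.49 per degree of freedom, against 7.79 and 8.03 for the pairs with replicate 3. Counting error alone gives about 1. Over the 3 libraries some single genes lay far below that, such as Foxp3 (0.027), Csf2 (0.036) and Themis (0.112). A small CV of a single gene is therefore not read as a trait of that gene. Replicate 3 was the library farthest from the mean in 6432 expressed genes (65.1%), replicate 1 in 1748 and replicate 2 in 1704. The median coefficient of variation (CV, SD over mean) of expressed genes was 8.54%, with the 5th and 95th percentiles at 1.99% and 26.8%, and it was 3.5% between replicates 1 and 2 alone. Members whose class rests on replicate 3 are counted with the totals, and some are named there.

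The difference of replicate 3 followed the level per kilobase of exon, the value divided by the length of all annotated exons of a gene. The median log2 ratio of replicate 3 to the mean of the other two was -0.24 in 2167 expressed genes under 50 per kilobase and -0.06 in 2489 genes from 50 to 100. It was 0.06 in 2901 genes from 100 to 200, 0.17 in 1607 genes from 200 to 400 and 0.26 in 339 genes from 400 upwards. In the highest of these groups replicate 3 lay above both other libraries in 95.3% of genes. The part of depth or library preparation in this trend was not tested. A list of strongly expressed genes that lies higher in replicate 3 is therefore set beside genes of like level below.

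Levels per kilobase lay close together among expressed genes. Of 9138 expressed protein coding genes with at least 500 exon bases, the median was 102 per kilobase, the 90th percentile 268 and the 99th 485, which is 4.74 times the median. The 100 genes with most reads held 5.87% of all reads. Differences in level between genes are given on this scale, and the order within a list can change with the length used. With the longest transcript as length, Myb (424) stood above Tcf7 (353), Kdm1a (346) above Sin3a (243) and Mfng (274) above Lfng (214). Batf (238) likewise stood above Rora (232), and Aldoa moved from 443 to 1062 per kilobase. The handling of duplicate reads before counting is not stated.

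The CD3 chains were all expressed, with a median CV of 5.54% against 8.54% over expressed genes of any level. The median CV was 6.49% for genes with means from 500 to under 1000 and 8.59% for those from 200 to under 500. Of the chains only Cd247 lay in the lower of these ranges, and the others lay in the upper. Cd3e, the epsilon chain, had values of 662, 666 and 712, a mean of 679.7 ± 27.8 and 167 per kilobase. Cd3d, the delta chain, had 553, 529 and 606 and stood highest of the 4 per kilobase, at 310.0. Cd3g, the gamma chain, averaged 687 ± 58.8, and Cd247, the zeta chain, averaged 279 ± 5.72 with the smallest CV of the list, 2.05%. Replicate 3 was the highest library for the epsilon, delta and gamma chains and lay between the others for zeta. The rearranging receptor chains themselves were not analysed here.

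Of 22 genes that act just below the receptor, 20 were expressed, 1 was low and 1 was absent. By all annotated exons, Rasgrp1, which activates Ras after receptor engagement, stood highest at 381 per kilobase. It was followed by the kinase gene Zap70 at 303, the diacylglycerol kinase gene Dgkz at 297 and the adaptor gene Lat at 296. With the longest transcript as length, Ptprc (609) and Dgkz (447) stood above Rasgrp1 (408). Lck, the kinase that starts the signal, had values of 611, 642 and 486, with replicate 3 the lowest. Themis, a scaffold protein of this pathway, was the steadiest, with 1913, 1925 and 1943 and a CV of 0.799%. The absent gene was Prkcq, the protein kinase C theta that links the receptor to NF-kappa-B, with values of 0.936, 0.958 and 0, which is 1 read in each of replicates 1 and 2. Ubash3a, a phosphatase-like inhibitor of receptor signalling, was just under the upper cut-off at 59.0, 52.7 and 34.4, and would be expressed in replicates 1 and 2.

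Pan T cell surface genes were mixed. Thy1 had values of 852, 851 and 932, the leukocyte antigen gene Ly6a stood highest per kilobase at 476, and 8 of 12 members were expressed. Cd2, an adhesion receptor, was expressed with 164, 175 and 93.4, and Spn, the sialophorin gene, with 143, 158 and 56.5. Both were lowest in replicate 3. Cd5, an inhibitory receptor carried by nearly all mature T cells, was absent with 1.87, 0.958 and 0, just under the cut-off of 1, while its relative Cd6 was low with 12.2, 9.58 and 25.8. The costimulator gene Cd27 had 12.2, 16.3 and 27.0 and Cd7 had 2.81, 0.958 and 2.46.

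Neither coreceptor was expressed, although the cells are labelled as mature T cells. Cd4, the coreceptor of helper T cells, was low with 14.0, 11.5 and 9.83, a mean of 11.8 ± 2.12 and 2.92 per kilobase. Cd8a was absent with 0.936, 0 and 0, and Cd8b1 had 1.87, 0 and 1.23, just over the cut-off of 1. By contrast, the factors that set the coreceptors were all expressed. Zbtb7b, the helper lineage factor ThPOK, had 1482, 1476 and 1825, and Runx3, the factor of the cytotoxic lineage, had 721, 686 and 731. Their levels were 285 and 143 per kilobase. Runx1 averaged 510.3 ± 14.4 and their shared partner Cbfb 784 ± 14.5.

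**Figure D1:**
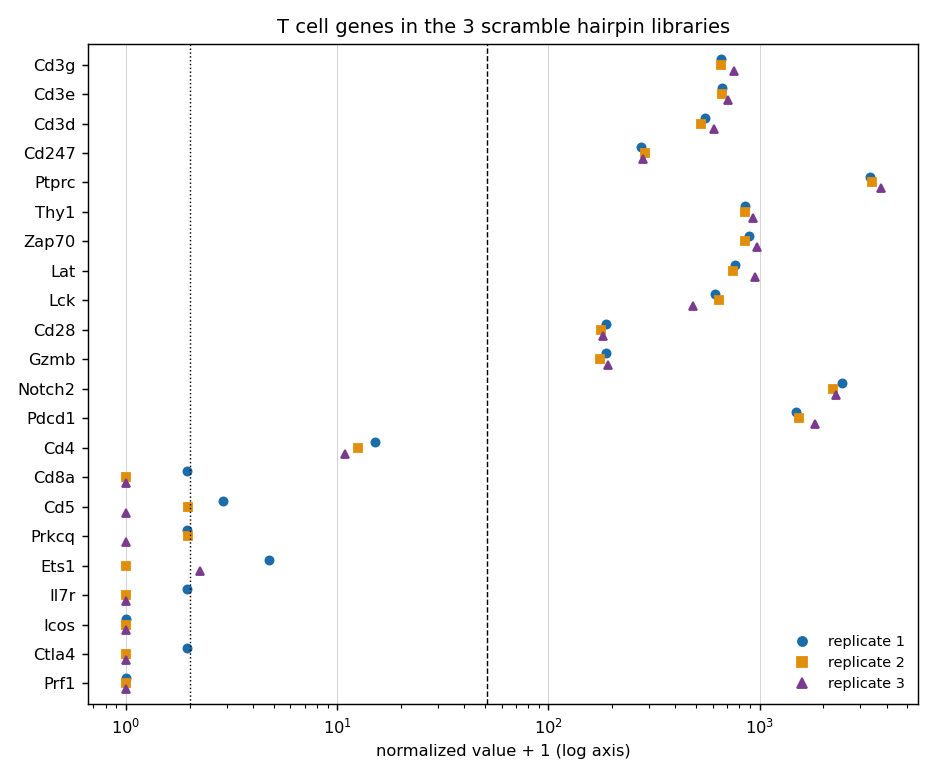
Normalized value plus 1 (log axis) of 22 T cell genes in the 3 scramble hairpin libraries, with 1 symbol per replicate; the dashed line marks the cut-off for expressed genes and the dotted line that for absent genes. The CD3 chains, Zap70, Lat, Cd28, Gzmb, Notch2 and Pdcd1 lie right of the dashed line in every library, Cd4 lies between the lines, and Icos and Prf1 are listed at 0 in all 3.

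The lineage transcription factors were largely expressed, with 14 of 18 above the cut-off, 4 low and 0 absent. Gfi1, a repressor needed for T cell development, stood highest at 409 per kilobase, before Tcf7 at 332, which encodes TCF-1. Gata3, needed for the helper lineage, was steady with 874, 905 and 913, and Foxo1, which governs homing and survival genes, steadier still with 589, 585 and 594 and a CV of 0.704%. Bcl11b, the T cell commitment factor, had 1688, 1731 and 1147, with replicate 3 clearly the lowest. The 4 low genes were Id3 (11.1), Satb1 (26.1), Ets1 (1.66) and Ikzf2 (1.26), as mean values. Ets1, which is abundant in resting T cells, had 3.74, 0 and 1.23, a handful of reads.

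Factors of several helper subsets were present together. Rora, shared by Th17 and innate lymphoid cells, had 2675, 2377 and 2522 and was the highest of its list at 193 per kilobase. Foxp3, the factor of regulatory T cells, was expressed at a modest 24.1 per kilobase. Its values of 109, 111 and 112 lay closer together than counting error gives on average. Tbx21, which encodes the Th1 factor T-bet, had 75.8, 82.4 and 72.5, and Bcl6, the factor of follicular helper cells, 88.0, 61.3 and 60.2. Maf averaged 645 ± 46.9, Prdm1, which encodes Blimp-1, 550.3 ± 92.5, and Batf 227 ± 8.42. Eomes and Ahr were listed at 0 in all 3 libraries, Hopx and Zbtb16 were absent, and Irf4 and Irf8 were low.

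Signal-dependent factors were nearly all expressed, 26 of 29, with 3 low and 0 absent. Junb (406 per kilobase), Myc (403) and Jund (400.4) stood highest. The immediate early genes Egr1, Fos and Jun were among the most variable of the list and were highest in replicate 3. Egr1 had 172, 184 and 339, Fos 255, 270.2 and 425 and Jun 213, 269 and 382. Nfkb2, by contrast, had 1042, 1036 and 1028, a CV of 0.719%. The low members were Egr2 (39.4), Fosl1 (18) and Egr3 (9.81), as mean values.

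Among costimulatory receptors, Cd28 was expressed with 186, 177 and 181, a mean of 181 ± 4.52, a CV of 2.49% and 29.6 per kilobase. Tnfrsf9, which encodes the activation receptor 4-1BB, stood highest at 522 per kilobase with 1327, 1235 and 1704, and Tnfrsf18, which encodes GITR, reached 219. The CD28 relative Icos was listed at 0 in all 3 libraries. Of 12 members 6 were expressed, 4 were low and 2 were absent. Cd40lg, the ligand that helps B cells, had 144, 126 and 60.2 and Cd226 had 354, 349.7 and 203, both lowest in replicate 3.

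The inhibitory receptor Pdcd1, which encodes PD-1, was at 838 per kilobase among the 10 highest in the table of the protein coding genes with at least 500 exon bases. Its values were 1493, 1531 and 1828. Only 3 other inhibitory receptors of the 12 in the table were expressed, namely Cd96, Btla and Cd200r1. Cd96 had 292, 304 and 118 and Btla 314, 293 and 154, both lowest in replicate 3. Over the 4 expressed members the median log2 ratio of replicate 3 to the other two was -0.63, and it was -0.57 after subtracting the median of genes of like level per kilobase. Ctla4 was absent with 0.936, 0 and 0, and Lag3, Tigit and Havcr2 were low, at mean values of 2.40, 9.20 and 3.85.

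Cytokine genes were mostly absent. Of 21 interleukins, interferons and related factors, 12 were absent, 5 were low and 4 were expressed. Il2, Il4, Il13, Il17a, Il21, Il10 and Ifng were all absent, with values of 1.87, 0 and 0 for Il2 and 1.87, 0.958 and 0 for Ifng, and Il4, Il17a, Il21 and Il10 listed at 0. The expressed members were Tgfb3 with 985, 791 and 1396, Tgfb1 with 756, 795 and 752, Il16 with 869, 852 and 741 and Csf2 with 96.4, 99.7 and 99.6. Tgfb3 and Tgfb1 encode forms of transforming growth factor beta, Il16 encodes a chemoattractant precursor and Csf2 encodes the growth factor GM-CSF. Of these, Tgfb3 was the highest per kilobase at 313 and the least even, and Csf2 was the most even, with a CV of 1.89%. Il5 and Il22 were low, at 5.85 and 4.84. Il17f was just over the lower cut-off at 1.87, 0 and 1.23.

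Ligands of the TNF family were more often expressed, 6 of 10. Tnf itself had 320.0, 356 and 315 and was the highest per kilobase at 202, and Ltb, Lta and Tnfsf9 averaged 209 ± 23.9, 118 ± 25.2 and 150.4 ± 32.6. Tnfsf10, the death ligand TRAIL, had 77.7, 73.8 and 12.3. Its mean was over the cut-off although replicate 3 was under it, and Tnfsf11, which encodes RANKL, likewise fell under the cut-off in replicate 3 with 97.3, 92.0 and 45.5. Fasl was low with 0.936, 1.92 and 1.23. Among 13 chemokine genes, Ccl5 was expressed with 65.5, 75.7 and 66.4, Cxcl10 was low at 15.2, and 11 were absent, with Ccl3, Ccl4, Xcl1 and Ccl20 among the 8 listed at 0.

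Cytokine receptor chains formed complete sets for some cytokines and incomplete sets for others. The shared gamma chain gene Il2rg had 744, 778 and 817, and the beta chain Il2rb had 144, 110.2 and 149, whereas the alpha chains that make the high-affinity receptors were near the floor. Il2ra, which encodes CD25, had 0.936, 1.92 and 1.23, Il7r had 0.936, 0 and 0, and Il15ra and Il21r were absent. The interleukin 9 and interleukin 4 receptor genes were exceptions, with 652, 546 and 621 for Il9r, or 123 per kilobase, and 124, 86.2 and 144 for Il4ra, or 19.6 per kilobase. Both chains of the type I and type II interferon receptors were expressed, with Ifngr1 the highest of the 35 receptor genes at 363 per kilobase. The genes Tgfbr1 and Tgfbr2 were expressed with means of 549 and 1925, and Il27ra and Il6st with means of 397 and 596. Both chains of the interleukin 10 receptor were also expressed. Il10ra had 426, 378 and 885, highest in replicate 3, and without that library its mean was 402. The common beta chain Csf2rb had 73.9, 56.5 and 202 and was the most variable of the list, while its alpha chain Csf2ra was absent with 0, 0.958 and 0. Il1r1, Il18r1, Il18rap and Il1rl1 were listed at 0. In all, 18 chains were expressed, 3 were low and 14 were absent. All 4 Janus kinases were expressed, from 175 per kilobase for Tyk2 to 332 for Jak1, and of their feedback inhibitors Socs1 and Cish were expressed, with means of 112 and 59.6, and Socs2 and Socs3 were low, with means of 25.9 and 17.3.

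Chemokine receptors expressed were Cxcr4, Ccr8, Ccr4, Cxcr6, Ccr2 and Ccr6, 6 of 18. Cxcr4 was the highest at 367 per kilobase with 608, 656 and 725. Ccr8 and Ccr4, receptors of Th2 and regulatory T cells, stood at 301 and 160.2 per kilobase. Ccr6, a receptor of Th17 cells, had 95.4, 82.4 and 6.15, the largest CV of any expressed list member, 78.6%. It was expressed in replicates 1 and 2 and low in replicate 3. The homing receptors Ccr7 and Ccr9 were low, with 30.9, 24 and 51.6 for Ccr7 and 36.5, 28.7 and 68.8 for Ccr9. In both, replicate 3 was highest and over the cut-off. Cxcr5 was absent. S1pr1, which guides exit from lymph nodes, was absent with 0, 0.958 and 0.

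Of the homing and adhesion genes 10 of 18 were expressed, integrin chains among them. Itgb7 had 1571, 1589 and 1836, or 601 per kilobase, and Itgb2, the beta chain of LFA-1, 489 per kilobase. Of the alpha chains that pair with Itgb7, Itga4 was low with 19.7, 15.3 and 6.15 and Itgae was low with 23.4, 24 and 20.9. Of the alpha chains that pair with Itgb2, Itgal was expressed with 1333, 1272 and 989, at 182 per kilobase, Itgam was low with 2.81, 4.79 and 4.92 and Itgax was absent with 0, 1.92 and 0. Itgb3 and its partner Itgav were both expressed, with 846 ± 118 and 1129 ± 127, as was the hyaluronan receptor gene Cd44 with 1431 ± 75.7.

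Of the cytotoxic granule genes, Gzmb was expressed and the pore-forming protein gene Prf1 was listed at 0 in all 3 libraries. Gzmb, a protease that kills target cells, had 187, 174 and 191, a mean of 184 ± 8.51 and 128 per kilobase. Gzma and Gzmm were low, at 25.3, 24 and 16.0 and 47.7, 34.5 and 46.7, and Gzmc, Gzmd, Gzme, Gzmf, Gzmg, Gzmk and Gzmn were absent. Ctsc, the protease that activates granzymes, was listed at 0. The other expressed members, Srgn and Lamp1, encode a granule proteoglycan and a general lysosomal protein.

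**Figure D2:**
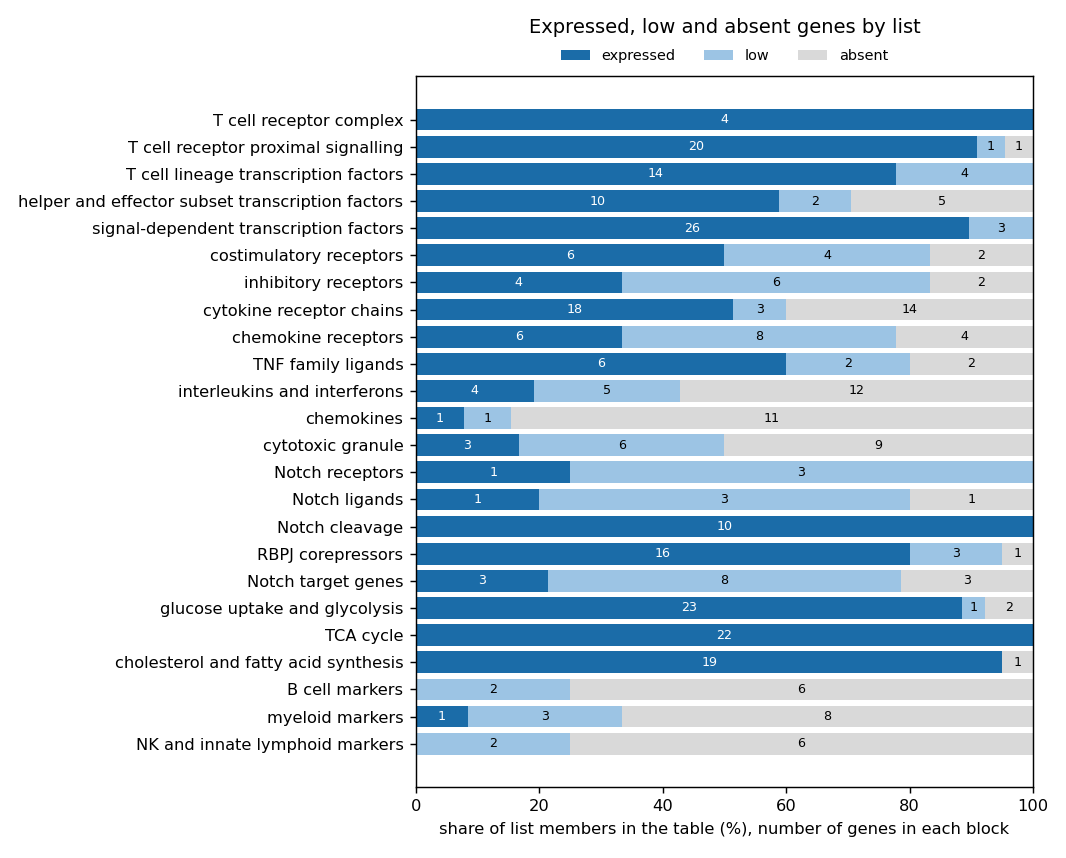
Share of the members of 24 gene lists that were expressed, low or absent in the scramble hairpin libraries (percent of the members in the table), with the number of genes in each block. All members of the CD3 complex, Notch cleavage and the TCA cycle were expressed, while chemokines, interleukins and the markers of B cells and NK cells were mostly absent.

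Notch2 was the only expressed Notch receptor. It had values of 2451, 2235 and 2294, a mean of 2327 ± 111 and 216 per kilobase. Notch4 had 29.0, 53.7 and 51.6, on both sides of the cut-off of 50, and stood at 5.55 per kilobase. Notch1, the receptor of early thymocytes, was low with 28.1, 31.6 and 18.4, or 1.83 per kilobase, and Notch3 had 0.936, 0 and 2.46. On the length scale the values of Notch4, Notch1 and Notch3 did not reach that of Notch2 in any library, and replicate 3 was not set apart for Notch2.

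Ligands were scarce. Jag2 was the only expressed member of 5, with 67.4, 66.1 and 40.6, and in replicate 3 it was under the cut-off. Jag1 was low with 24.3, 28.7 and 11.1, Dll4 and Dll3 were near the floor at means of 2.30 and 1.13, and Dll1 was listed at 0. Per kilobase, Jag2 stood at 8.33, far below the receptor Notch2.

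All 5 glycosylation genes and all 10 cleavage genes were expressed. Lfng and Mfng, fringe enzymes that lengthen sugars on the receptor and alter its choice of ligand, stood at 197 and 179.9 per kilobase, and the third fringe gene, Rfng, at 36.1. Pofut1 and Poglut1, which attach a sugar to the receptor in an earlier step, stood at 34.2 and 43.7. Among proteases, Adam10 had 922, 853 and 810.0 and Adam17 1195, 1255 and 1250.0, at 175 and 172 per kilobase. The gamma-secretase genes Aph1a (255 per kilobase), Ncstn (186) and Psenen (127) stood above Psen2 (24.6), Aph1b (49.9) and Aph1c (10.4). Aph1c was just over the cut-off, with 66.4, 47.9 and 47.9, and would be low in replicates 2 and 3.

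In the nuclear complex, Rbpj had 1743, 1613 and 2159.6, at 144 per kilobase, and its paralog Rbpjl was listed at 0. Of the Mastermind coactivators, Maml1 had 664, 649.7 and 656 and Maml3 398, 341 and 342, and Maml2 was absent with 0, 1.92 and 0. The acetyltransferase genes Ep300, Crebbp, Kat2a and Kat2b were all expressed. Turnover genes were expressed in 11 of 13 cases, with the ligase gene Mib2 highest at 199.9 per kilobase and Fbxw7, which marks the active receptor for destruction, at 119. Dtx1, a Deltex gene that Notch induces in thymocytes, was low with 0.936, 0.958 and 2.46, whereas Dtx2 and Dtx3 were expressed.

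Corepressors of RBPJ were expressed in 16 of 20 cases. Ncor1 had 3992, 3841 and 4479 and led the list at 320.4 per kilobase, before Sin3a at 235 and the demethylase gene Kdm1a at 202. Spen, which binds RBPJ directly, stood at 67.6 per kilobase. L3mbtl3, the factor targeted elsewhere in the series, had 467, 447 and 352, at 43.4 per kilobase, lowest in replicate 3. Ctbp2, Tle1 and Bend6 were low, and Fhl1, of which an isoform binds RBPJ, was listed at 0, whereas Ctbp1, Tle3 and Tle4 were expressed.

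Few genes of the Notch target list were expressed, 3 of 14, with 8 low and 3 absent. The list holds the classical Hes and Hey genes and others such as Lgmn, Bcl2a1b and Gimap8. Hes1, the best known target, had 178, 130.3 and 273, a mean of 194 ± 72.6 and 95.1 per kilobase. It was the least even Notch pathway gene among those expressed, with a CV of 37.5%, highest in replicate 3 and lowest in replicate 2. Hes6 had 166, 175 and 145 and Cdca7 627, 687 and 602. Hey1, Hes5, Hes7 and Nrarp were low, with means of 1.54, 1.26, 1.87 and 1.89, which are under the value that 3 reads give in any library. Hey2 and Heyl were listed at 0. Ptcra, the pre-T cell receptor chain that Notch drives in thymocytes, was low with 20.6, 21.1 and 23.4, and Gimap8 was low by its mean with 15.9, 17.2 and 92.2 and expressed in replicate 3.

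**Figure D3:**
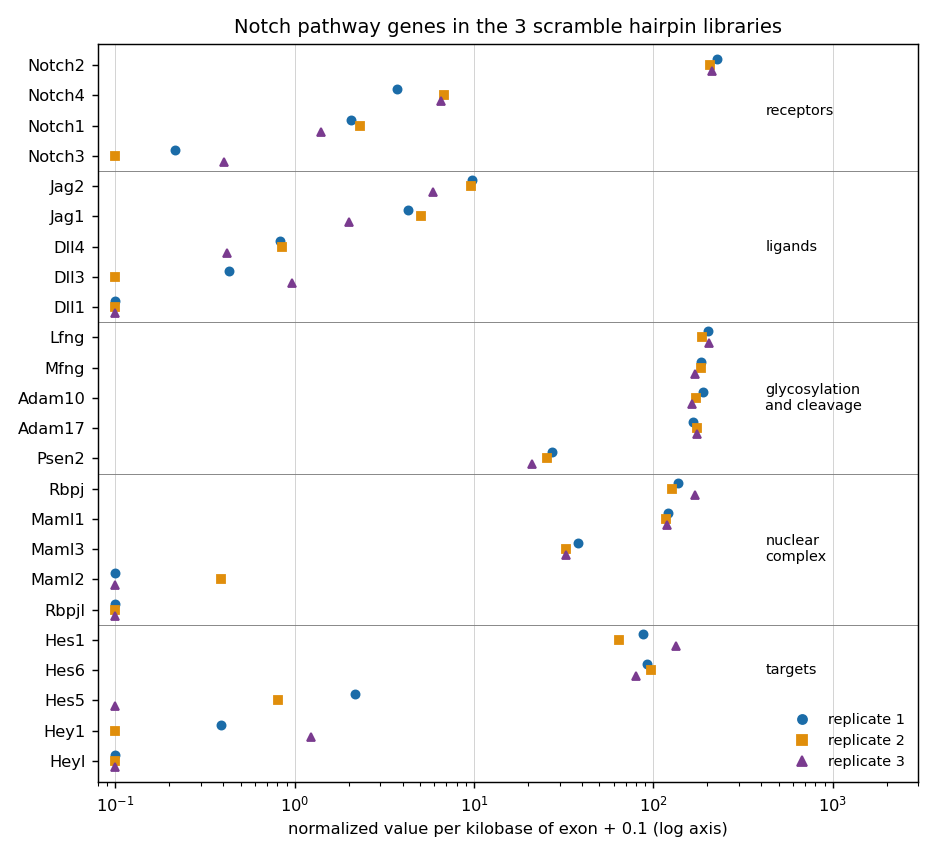
Normalized value per kilobase of exon plus 0.1 (log axis) of 24 Notch pathway genes in the 3 scramble hairpin libraries, with 1 symbol per replicate and genes grouped by role. Notch2 lies near 216 per kilobase and the other receptors under 10, Adam10 and Adam17 lie near Notch2 and Psen2 below them, and Hes1 and Hes6 are the only targets shown that lie well above the floor.

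Promoter sequences were set beside these classes. RefSeq promoters (250 bases upstream of the start, build GRCm38.p6) were matched by symbol for 17215 genes (70.6% of the table). Of these, 2654 had more than 1 promoter listed, and only the first was used, which need not be the one active in these cells. The ratio of observed to expected CG dinucleotides had a median of 0.765 in expressed genes, 0.443 in low genes and 0.246 in absent genes. Genes with a ratio under 0.2 were expressed in 8.57% of 3979 cases, and genes at 0.8 and over in 75.2% of 4361 cases. The CD3 chains were expressed with 0 of 4 promoters at a ratio of at least 0.6, against 73.9% of all expressed genes. Of the 22 TCR signalling genes, 20 had a promoter in the table and 8 of these reached 0.6. The promoters of Notch2, Cd3d and Prkcq are given, in the gene's direction, with each CG in capitals. They show an expressed gene with many CG, an expressed gene with none and an absent gene with many.
Notch2 (chr3:98013288-98013537, plus strand): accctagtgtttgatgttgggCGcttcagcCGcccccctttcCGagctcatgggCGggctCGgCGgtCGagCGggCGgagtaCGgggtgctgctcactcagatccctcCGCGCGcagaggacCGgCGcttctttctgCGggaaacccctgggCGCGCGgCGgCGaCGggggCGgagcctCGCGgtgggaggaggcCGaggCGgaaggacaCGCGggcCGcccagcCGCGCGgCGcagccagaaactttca
Cd3d (chr9:44981536-44981785, plus strand): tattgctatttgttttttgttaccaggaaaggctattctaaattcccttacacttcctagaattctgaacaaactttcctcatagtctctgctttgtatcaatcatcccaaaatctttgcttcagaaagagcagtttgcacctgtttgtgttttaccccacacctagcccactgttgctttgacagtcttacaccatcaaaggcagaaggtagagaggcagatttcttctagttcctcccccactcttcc
Prkcq (chr2:11172132-11172381, plus strand): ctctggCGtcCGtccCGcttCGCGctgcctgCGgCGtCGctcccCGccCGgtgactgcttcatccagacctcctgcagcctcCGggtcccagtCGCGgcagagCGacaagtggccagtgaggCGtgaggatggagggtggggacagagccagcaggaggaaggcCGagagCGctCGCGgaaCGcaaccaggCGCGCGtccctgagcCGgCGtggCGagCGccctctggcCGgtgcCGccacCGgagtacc
The Notch2 promoter held 34 CG, at an observed over expected ratio of 1.06. That of Cd3d held 0, and that of Prkcq 30, at a ratio of 0.916, while Prkcq had 1 read in each of replicates 1 and 2 and none in replicate 3.

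**Figure D4:**
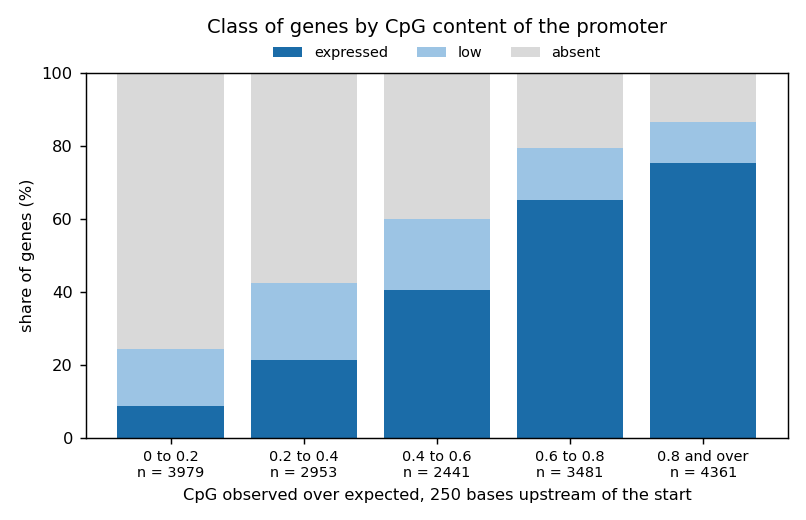
Share of genes expressed, low and absent (percent) in 5 groups of genes by the observed over expected ratio of CG dinucleotides in the 250 bases upstream of the start, with the number of genes under each bar. The expressed share is 8.57% in the lowest group and 75.2% in the highest.

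The core of the RBPJ binding motif, TGGGAA, was searched on both strands of the same windows. It was present in 21.1% of all 17215 promoters, with 19.6% of expressed, 22.9% of low and 21.9% of absent genes holding it. The longer form GTGGGAA, which contains it, was present in 5.50% of all promoters. Of the 11 Notch target genes with a promoter in the table, 54.5% held the shorter form and 45.5% the longer. The list was chosen with earlier results of these data known, so this share describes the list. Hes1, Hey1 and Heyl had no promoter in the table and are not part of the share. Hes5, low in these cells, held 2 matches, and its promoter is given with both in capitals.
Hes5 (chr4:154960673-154960922, plus strand): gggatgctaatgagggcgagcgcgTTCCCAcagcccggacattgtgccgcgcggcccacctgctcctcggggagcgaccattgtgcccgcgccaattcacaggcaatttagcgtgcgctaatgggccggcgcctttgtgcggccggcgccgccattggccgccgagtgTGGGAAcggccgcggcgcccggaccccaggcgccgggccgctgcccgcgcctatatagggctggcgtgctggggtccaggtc
The match on the minus strand begins 226 bases before the start and reads TTCCCA here, and the match on the plus strand begins 82 bases before it. A match describes the letters of the window and says nothing of binding.

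Metabolic genes were broadly expressed. All 22 TCA cycle genes and all 19 genes of the pentose phosphate pathway and nucleotide synthesis were expressed, and 23 of 26 genes of glucose uptake and glycolysis. The glucose transporter gene Slc2a1 had 1407, 1363 and 1985, at 452 per kilobase, and the hexokinase gene Hk2 had 1689, 1555 and 1997. Pgk1, Pgam1 and Aldoa, enzymes of the pathway's trunk, stood at 566, 512 and 443 per kilobase. The hexokinase gene Hk3 was listed at 0, and Pklr, the pyruvate kinase gene of liver and red cells, had 1.87, 0.958 and 1.23. Eno1, Eno1b and Gapdh share near-identical copies elsewhere in the genome, so their values are uncertain. Eno2, the neuronal enolase gene, had 81.4, 68.0 and 8.60 and was just over the cut-off, and without replicate 3 its mean was 74.7.

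Glycolysis genes lay higher in replicate 3. The median log2 ratio to the other two libraries was 0.32 over the 23 expressed members, against 0.17 for genes of like level per kilobase, and 0.15 after subtracting that median gene by gene. Pkm had 1690.0, 1726 and 2309.6 and Gpi1 1387, 1382 and 1902. The TCA cycle genes had a median of 0.10, and of -0.02 after the subtraction. Suclg2, with 595, 594 and 589, and Sdhc, with 416, 425 and 420.4, were among the most even members.

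Lipid synthesis genes were expressed together, with 1 exception among 20. Scd2, a fatty acid desaturase gene, had 3779, 3760.0 and 4688, at 746 per kilobase, and Fasn, the fatty acid synthase gene, had 3872, 3994 and 4323. The regulator genes Srebf2 and Srebf1 stood at 381 and 358 per kilobase. The exception was Hmgcs1, an enzyme of the mevalonate pathway, which was listed at 0 in all 3 libraries, although every cell that makes sterol needs it. A 0 in this table is therefore given as listed and is not proof that no RNA was made.

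In amino acid and one-carbon metabolism 18 of 23 genes were expressed. Slc7a5 and Slc3a2, which form the large neutral amino acid transporter, averaged 1557 ± 118 and 1188 ± 142, and the serine synthesis genes Phgdh and Psat1 stood at 299 and 252 per kilobase. Slc1a5, a glutamine transporter gene, was very even with 960.1, 965 and 954. Arg1 and Arg2 were low, Cbs was absent and Ido1 was listed at 0. Of 13 genes of fatty acid oxidation 9 were expressed, with Cpt1a at 830.0, 778 and 529.8, and the coactivator gene Ppargc1a was absent with 0.936, 0 and 0.

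Cycling genes were high, with 20 of 22 expressed. Mki67 had 5080.2, 5437 and 5904 and Top2a 2988, 3208 and 3729, at 544 and 367 per kilobase. Of the D-type cyclins, Ccnd2 and Ccnd3 were expressed with 1519 ± 172 and 1029 ± 91.3, and Ccnd1 was low with 31.8, 27.8 and 14.8. Cdkn2a, a cell cycle inhibitor gene that is often lost in lymphoid tumour lines, was expressed with 177, 175 and 183, and Trp53 with 546, 541 and 578. Survival genes included Mcl1 at 371 and Bcl2 at 153 per kilobase. Fas was low with 24.3, 27.8 and 20.9, and Pmaip1, which encodes the death protein NOXA, was absent with 0, 0.958 and 0. Class I antigen presentation was expressed, with B2m at 772 per kilobase, whereas the class II genes H2-Aa and H2-Ab1 were listed at 0 and H2-Eb1 had 1.87, 0 and 1.23. Genes of the H2 complex share reads with close copies and are uncertain.

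Markers of other lineages were mostly low or absent, and 3 were expressed. No marker was expressed of 8 for B cells, 8 for NK and innate lymphoid cells, 6 for dendritic cells, 8 for red cells and platelets and 5 for gamma delta T cells. Some of these were low but above the floor. Itga2b of platelets had a mean of 25.3 and Hba-a1 of red cells 18.1. Cd163l1 of gamma delta T cells had 19.8 and Xcr1 of dendritic cells 11.4. The summed values of the B cell markers were 5.61, 3.83 and 7.37, and Pax5, Ebf1 and Cd79b were listed at 0. Cpa3, a protease gene of mast cells, was expressed with 891, 915 and 960.0, at 608 per kilobase, while the mast cell genes Kit, Mcpt4, Fcer1a, Ms4a2 and Tpsb2 were listed at 0. Cd68, a lysosomal gene used as a macrophage marker, had 327, 359 and 340.5, while Fcgr3 and Lyz2 were low at means of 34.4 and 5.63, and Csf1r, Adgre1 and Cd14 were at 1.68, 0.729 and 0 as means. Pecam1, an adhesion gene of endothelium and some leukocytes, had 393, 295 and 246, with Cdh5 listed at 0. Immature thymocyte genes were likewise low or absent, Rag1 with 0.936, 0 and 0 and Rag2 with 0, 0.958 and 0, apart from Dntt, the terminal transferase gene, with 93.6, 90.1 and 47.9.

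Of the 601 list members in the table, each counted once, 366 were expressed, 107 were low and 128 were absent, and 536 kept their class in all 3 libraries. Without replicate 3, the class of 16 members was another one. Ubash3a was then expressed with a mean of 55.8. The other 15 crossed the lower cut-off, where a mean rests on a few reads. Cd5 and Ifng were then low at a mean of 1.41 each, and Notch3, Hey1 and Dll3 absent at 0.468 each. Hes7, Dtx1, Cd8b1 and Il17f, given above as low, were then absent at 0.958, 0.947, 0.936 and 0.936. The 10 expressed genes with the largest CV were Art2a-ps, Ccr6, Lonrf3, 5830411N06Rik, Eno2, Slc15a1, Csf2rb, Ccdc91, Tnfsf10 and Gimap7. In each of these replicate 3 was the library that differed. Art2a-ps, a T cell surface pseudogene, had 12.2, 7.67 and 132, Lonrf3 125, 137 and 8.60 and 5830411N06Rik 491, 535 and 35.6. Of the 9884 expressed genes, 119 were at least 2-fold lower in replicate 3 than in the mean of replicates 1 and 2, and 13 at least 2-fold higher. The cut-off on the mean of all 3 libraries more readily passes a gene high in replicates 1 and 2 than one high in replicate 3 alone. These 2 counts are therefore not weighed against each other, and low genes are not in them.

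The Gimap genes, GTPases of lymphocyte survival, were a group that moved with replicate 3. Gimap9, the highest at 212 per kilobase, had 289, 297 and 456, Gimap1 had 108, 88.2 and 267 and Gimap7 had 77.7, 84.3 and 227. The low members Gimap5 (11.2, 9.58 and 30.7) and Gimap6 (6.55, 6.71 and 34.4) were likewise highest in replicate 3. Over the 3 expressed members the median log2 ratio of replicate 3 was 1.44, and it was 1.5 after subtracting genes of like level. These genes lie side by side and resemble each other, so they may share reads and are not independent.

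**Figure D5:**
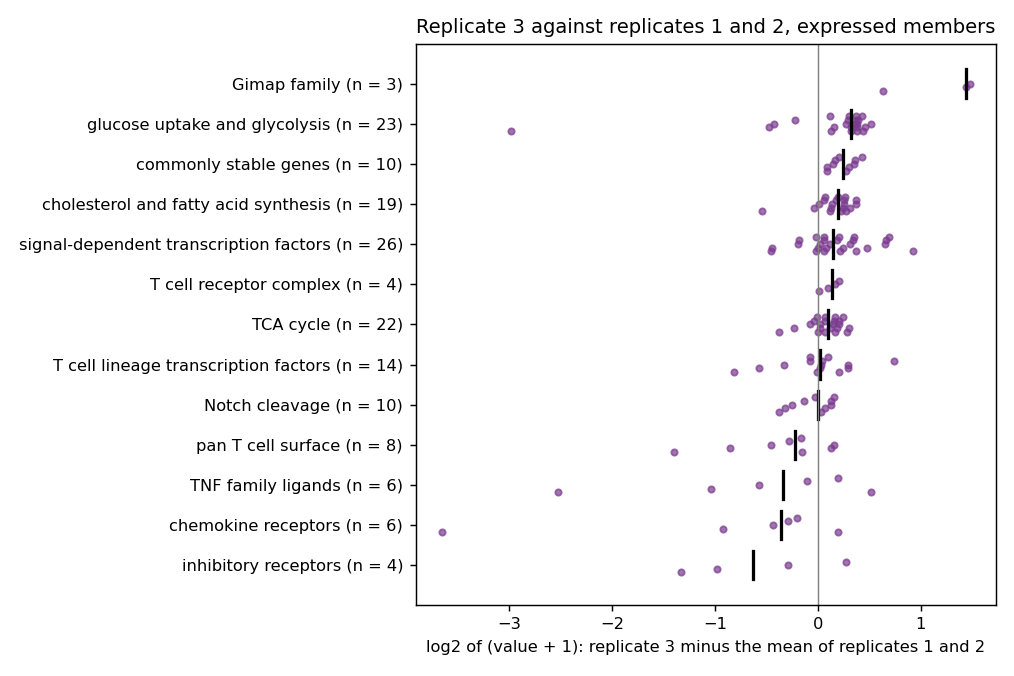
Difference of log2(value + 1) between replicate 3 and the mean of replicates 1 and 2, with 1 point per expressed gene of 13 lists and a bar at the median. The Gimap genes have a median of 1.44 and the inhibitory receptors one of -0.63, while the CD3 complex, the TCA cycle and the Notch cleavage genes lie near 0.

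The genes with most reads overall were long or nuclear transcripts. The nuclear RNA Neat1 had the highest mean, 7043, followed by Plec (6474), a cytoskeletal linker gene, the ribosomal precursor Rn45s (5762) and Ubr4 (5529), a ubiquitin ligase gene. Another nuclear RNA, Malat1, reached 773 per kilobase. Per kilobase, protein coding genes of at least 500 exon bases were led by the histone genes Hist2h2aa2 and Hist2h2aa1, which are near-identical copies, and by Arf6 at 1214, a small GTPase gene of membrane traffic. Eef2, the elongation factor gene, stood at 914, Txnip, an inhibitor of glucose uptake, at 805, and the leukocyte tetraspanin gene Cd53 at 795. In all of these except Plec replicate 3 was the highest library.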

How the data were processed

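RNA-seq of the 3 scramble hairpin libraries was used, grouped by their sample titles. The values are a signal that the authors made from gene counts, and the tools named per the submitters' processing notes are DESeq2 1.24.0 and TopHat2 2.1.1, with the build mm9. Which program counted reads, against which annotation and how it treated strand and duplicate reads, was not given in the sources used. Divided by the value of 1 read, 100% of the values in each library came out whole (tolerance 0.1 read), so reads were recovered (4882485 to 6129134 per library). The 15 value columns of other groups were not used.

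Genes were classed by the mean value over the 3 libraries, with cut-offs of 50 and 1. Spread is the SD or CV over libraries, and log2 ratios used a pseudocount of 1. With a single group there was no comparison, so no count test was run and no p-value is given. The labels do not say that replicates were separate cultures, so the spread may be technical. Values per kilobase used all annotated exons of the matching symbol in GENCODE for GRCm38 (95.7% of genes), a build other than that of the files, so no coordinates of genes are given other than those of the RefSeq promoters. Union exons are longer than most transcripts and lower the value of genes with long alternative exons. Genes that overlap or have near-identical copies (histones, H2, Gimap, enolase and Gapdh) share an uncertain number of reads, and 50 expressed genes had the same 3 values as another gene.

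The members and 45 gene lists were chosen with earlier results of these data known. Of the listed genes, 601 of 602 were in the table. Named were the markers Cd3e, Cd4, Cd28, Gzmb and Notch2 and the 10 expressed genes with the largest CV. The 10 genes highest by mean and per kilobase and the list members with the largest CV were named in part. The same holds for the members of each list that were highest per kilobase, absent or nearest a cut-off. Other members, named for their known role, were chosen after their values were seen, and some members are counted but not reported by name here. Classing was tested on simulated libraries with counting error only, and correct classes were required only of genes away from the cut-offs. It therefore says nothing of classes near a cut-off or of the wider spread in these libraries. Alternatives were another scaling, the lowest library, length, other cut-offs and leaving out each replicate. Python 3.11.15, pandas 2.3.3, numpy 2.4.6 and matplotlib 3.10.9 were used.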

Additional observations from a re-analysis of the deposited data

How the results depend on the processing

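The numbers of expressed, low and absent genes stayed within 1.5 times of those reported under every alternative run, which were another library scaling, the lowest library in place of the mean, values per kilobase, other cut-offs and leaving out each replicate. Leaving out a replicate gave 9843 to 9936 expressed, 4031 to 4308 low and 10234 to 10424 absent genes. Applied per kilobase, the cut-offs left 7612 genes expressed, and 8331 with the longest transcript as length, an alternative chosen after seeing the data. The absent genes numbered 7725 when only genes without any read were counted. The median CV of expressed genes, 8.54%, ranged from 3.51% without replicate 3 to 9.15% without replicate 2, so its size rests on replicate 3. It was 7.96% after scaling to the same total and 11.6% over all genes with a mean of at least 1. The means of Cd3e, Cd4, Cd28, Gzmb and Notch2 moved by less than 1 SD under each scaling and replicate alternative. No paired analysis was possible because a single group was described and no groups were compared. Depth limits the lower cut-off, since 1 read is worth about 1, and genes under 3 reads cannot be ordered.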

Other observations

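Large gene families, grouped by symbol, differed in how many members were expressed. None of 1125 olfactory receptor genes, 330 vomeronasal receptor genes or 53 keratin-associated protein genes was expressed, and 18, 8 and 0 of them were low. Housekeeping families lay at the other end, with all 77 mitochondrial ribosomal protein genes, 80 of 84 cytosolic ribosomal protein genes, 38 of 40 proteasome subunit genes and 37 of 38 NADH dehydrogenase subunit genes expressed. Others were spread over all 3 classes, since Zfp zinc finger genes were expressed in 64.4% of 368 cases and solute carriers in 41.1% of 331 cases, against 40.5% of all genes.

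In some families few members were expressed, and they can be named. Of 44 collagen genes these were Col11a2, Col20a1, Col6a3 and Col7a1, and of 105 entries whose symbol starts with Cyp and a digit, nearly all cytochrome P450 genes or pseudogenes, Cyp20a1, Cyp26b1, Cyp2c55, Cyp4f13, Cyp4f16, Cyp4f17, Cyp4f37 and Cyp51, the last an enzyme of sterol synthesis. The potassium channel genes expressed included Kcna3 and Kcnn4, channels that T cells use to sustain calcium entry. Replicate 3 was above both other libraries in 79 of 80 expressed cytosolic ribosomal protein genes and in 66 of 66 expressed histone genes, with median log2 ratios of 0.28 and 0.31, and of 0.14 and 0.07 after subtracting the median of genes of like level per kilobase. Among all expressed genes from 400 per kilobase upwards, replicate 3 was above both in 95.3%. It was below both in 133 of 237 expressed Zfp genes, at a median of -0.12, or -0.04 after the same subtraction.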
